A study of Mus musculus with 27 samples.

Results

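Open chromatin without a called Runx1 or Runx2 peak, and listed as stable when Runx1 is lost, was described in mK4 cells, a mouse line derived from the kidney metanephric mesenchyme. Accessible DNA had been mapped by ATAC-seq, in which the Tn5 transposase inserts sequencing adapters into open chromatin, and Runx binding by ChIP-seq. The authors divided their ATAC-seq regions into 3 lists by the change between control and Runx1KO cells: 37481 stable regions, 8741 regions that closed and 9427 that opened in Runx1KO cells. A stable region was taken here when it overlapped, by 1 bp or more, none of 3 ChIP-seq peak lists, which hold Runx1 peaks of control cells and Runx2 peaks of control and of Runx1KO cells. This left 26922 regions, which were 71.8% of the stable list and 48.4% of all 55649 ATAC-seq regions, and these are called Runx-free stable regions below. The name stands for the absence of a called peak, since binding under the threshold of peak calling cannot be seen in peak lists. They were compared with 3843 stable regions that held a Runx1 peak and with 6716 that held a Runx2 peak but no Runx1 peak. RNA-seq covered control (WT), Runx1KO and Zeb1/Zeb2 DKO mK4 cells, with 3 cultures of each. All were grown in medium with 10% FBS and collected near confluency. Runx1KO lines lacked the Runx1 exon with the start codon, and DKO lines the start codon exons of Zeb1 and Zeb2, after CRISPR-Cas9 deletion. The number of clones behind each group is not given in the sources used here, so clone and genotype cannot be told apart.

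Runx1 and Runx2 are DNA-binding proteins of the Runt family, which pair with Cbfb and recognise a short TGTGGT element. Much of the open chromatin of any cell does not depend on 1 such factor. Promoters of genes that every cell uses are kept open by factors such as Sp, Ets, Nfy and Nrf1 proteins that recognise CG-rich or CCAAT elements, Ctcf binds insulators together with cohesin, and AP-1 (Fos and Jun dimers) binds many distal enhancers. Zeb1 and Zeb2 are repressors that bind CAGGTG or CAGGTA and hold epithelial genes down in mesenchymal cells.

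RNA-seq values were deposited as TPM, so the read depth is unknown. The 9 libraries detected 12541 to 12697 genes at 1 TPM or more. The control libraries held Runx1 transcripts at 18.7, 15.6 and 17.9 TPM, and the libraries labelled Runx1KO at 30.3, 30.1 and 28.5 TPM. For Zeb1 the levels were 15.1, 14.2 and 15.6 TPM (control) and 16.8, 16.6 and 14.8 TPM (labelled Zeb1/Zeb2 DKO), and for Zeb2 5.5, 4.9 and 5.2 TPM and 1.7, 1.8 and 1.6 TPM. Thus Runx1 was higher and Zeb1 overlapped between the groups, and a value over the whole gene does not test the loss of 1 exon. Of 15 metanephric mesenchyme markers 9 reached a mean of 1 TPM in control cells, Pax2 and Hoxa11 among them, while Six2 and Hoxd11 were at 0. The 6 endothelial markers summed to at most 6.5 TPM in any library. The 6 leukocyte markers summed to 2.5 to 3.3 TPM in control, 30.9 to 32.8 TPM in Runx1KO and 26.2 to 29.4 TPM in DKO libraries, of which Csf1r alone gave means of 0.7, 29.7 and 24.5 TPM, while the defining marker Ptprc was at 0 in all 9. Markers of ureteric and nephron epithelium summed to 276 to 304, 658 to 678 and 567 to 578 TPM, and the part of either shift in the results below was not tested.

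Sequences of 6 Runx-free stable regions show the elements that recur in them. They were read 5′ to 3′ on the plus strand of mm9, and capitals mark the match. For the 4 promoter elements, taken in the order Ets, Nfy, Nrf1 and GC box, each gene was used once. The region shown belongs to the most highly expressed remaining gene (control TPM) that had the element and only Runx-free regions at its starts. Those of Junb, which encodes an AP-1 subunit, and Rpl12, a ribosomal protein of the large subunit, lie at chr8:87502494-87502523 and chr2:32816920-32816949. Each is shown as the 30 bases around the match, which lay outside the 120 bp around the region's middle or in an exon. The sequences of Rplp1, another ribosomal protein, and Eef2, an elongation factor of translation, lie at chr9:61762346-61762433 and chr10:80639212-80639331, outside annotated exons. The 2 distal examples, chosen by the control TPM of the nearest gene, are intergenic. The first is a Ctcf match 19.7 kb from the nearest start, that of Eif4ebp1 (chr8:28390581-28390700). The second is an AP-1 match 16.7 kb from the start of Phgdh (chr3:98160698-98160817). The Eif4ebp1 sequence also holds a Runx element (TGTGGT), which is not marked. The nearest Runx peak lay 541, 1011 and 534 bp from the regions of Junb, Eif4ebp1 and Phgdh. For Rplp1, Eef2 and Rpl12 it lay at 31232, 8723 and 28267 bp.
Junb promoter, Ets: ggcgctgctgggCTTCCGGagattttctct
Rplp1 promoter, Nfy: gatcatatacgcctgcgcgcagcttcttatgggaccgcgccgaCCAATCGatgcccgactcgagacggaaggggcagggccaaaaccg
Eef2 promoter, Nrf1: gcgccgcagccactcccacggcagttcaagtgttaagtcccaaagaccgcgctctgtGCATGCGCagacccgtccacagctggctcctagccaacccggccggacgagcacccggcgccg
Rpl12 promoter, GC box: cccttaggggagGGGCGGggccctgggctg
Eif4ebp1 distal region, Ctcf: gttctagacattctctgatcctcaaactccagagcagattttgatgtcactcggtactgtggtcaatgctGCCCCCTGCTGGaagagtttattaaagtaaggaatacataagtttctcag
Phgdh distal region, AP-1: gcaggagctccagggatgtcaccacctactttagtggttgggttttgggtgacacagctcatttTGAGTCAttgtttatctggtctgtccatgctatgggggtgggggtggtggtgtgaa

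Runx-free stable regions were mostly distal, narrow and poor in CpG, whereas stable regions with a Runx peak were mostly promoters. Only 17.9% of the Runx-free regions (4822) had an annotated transcript start within 500 bp, against 58% of stable regions with a Runx1 peak and 61.7% of those with a Runx2 peak only. The differences were -40.1 percentage points (95% Newcombe interval -41.7 to -38.4) and -43.8 points (-45 to -42.5), with the same sign on 20 of 20 chromosomes. Here and below the interval covers counting over regions, which are not replicates of a condition, and peaks were deposited without values per replicate. At the other end, 49.1% of the Runx-free regions lay over 10 kb from every start, against 23.9% and 21.5%. Closing and opening regions were farther from starts still, with 8.26% and 10.5% within 500 bp. The middle base of a Runx-free region was intergenic in 46.6%, intronic in 41.7%, in a UTR in 6.37% and in a coding exon in 3.68%.

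**Figure D1:**
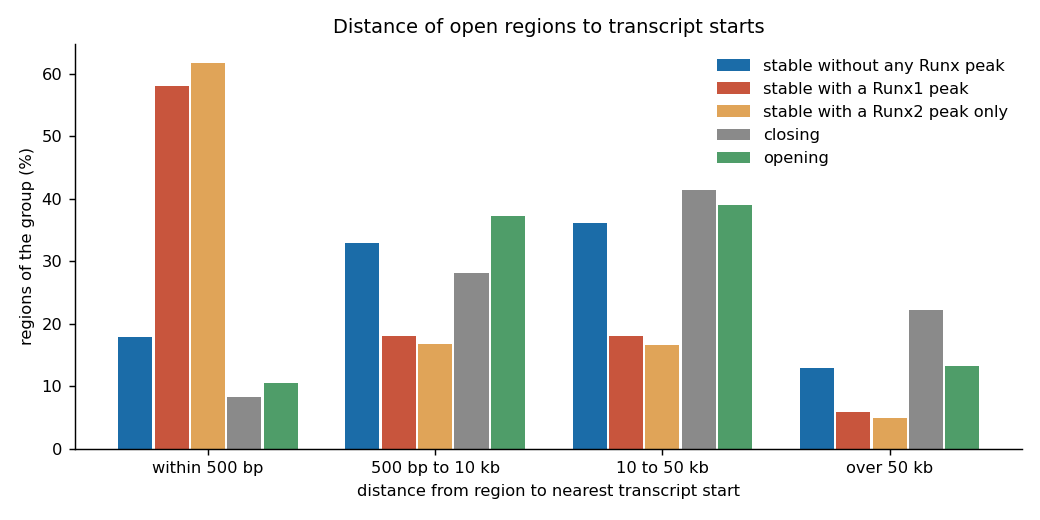
Share of regions (%, vertical axis) in 4 classes of distance to the nearest transcript start, for 5 groups of ATAC-seq regions given by colour. Runx-free stable regions (blue) have 17.9% within 500 bp of a start, between the stable regions with a Runx peak (58% and 61.7%) and the closing and opening regions (8.26% and 10.5%).

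The median width of the Runx-free regions was 522 bp (quartiles 362 and 766), against 997 bp and 972 bp in the 2 groups with Runx peaks. A wider region is more likely to touch a peak, so width is tied to the rule and is given as a description. Median GC content was 51.2% (47.8 to 55.1) against 57.2% and 58.2%. The CpG ratio, the number of CpG sites over that expected from base composition, had a median of 0.232 against 0.608 and 0.64. Most of the difference in composition went with promoter position. Among regions over 500 bp from every start the medians of GC content were 50.2%, 50.8% and 50.9%, and those of width 475, 781 and 675 bp. Runx-free regions at starts remained narrower, at 869 bp against 1139 and 1114 bp, with a CpG ratio of 0.64 against 0.757 and 0.76.

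The nearest Runx peak lay at a median of 20394 bp from a Runx-free region, with quartiles of 7928 and 47456 bp. Peaks within 10 kb were found for 30.2% of the regions and within 500 bp for 1.57% (422). At the edge of the rule, the 3 regions nearest to a peak had gaps of 2, 6 and 7 bp, and the stable regions with the least overlap shared 3, 3 and 5 bp with one. On the autosomes and chromosome X the share of stable regions that were Runx-free ranged from 66.5% on chromosome 17 to 75.9% on chromosome 12.

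AP-1 and Ctcf matches were more frequent in the Runx-free stable regions than in stable regions with a Runx peak. Matches were counted on both strands in the middle 200 bp of each region. TGACTCA, the AP-1 element, was found in 5979 Runx-free regions (22.2%), against 10.4% of stable regions with a Runx1 peak, a difference of 11.8 points (10.7 to 12.9, same sign on 20 of 20 chromosomes). Against regions with a Runx2 peak only (8.58%) the difference was 13.6 points (12.8 to 14.4). A dinucleotide-shuffled copy of each Runx-free window held the element in 4.8%. The 12-base Ctcf consensus was found in 1304 Runx-free regions (4.84%), against 1.09%, 2.28% and, in shuffled copies, 0.104%. The differences from the 2 groups with Runx peaks were 3.75 points (3.29 to 4.14) and 2.57 points (2.11 to 2.99).

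These contrasts were smaller between regions of like width, GC content and promoter position. With these 3 as terms of a logistic regression, the odds ratio of an AP-1 match in Runx-free regions was 1.02 (95% interval 0.91 to 1.15) against regions with a Runx1 peak and 1.26 (1.14 to 1.39) against those with a Runx2 peak only. For Ctcf it was 1.15 (0.833 to 1.59) and 0.623 (0.518 to 0.749), so the direction against regions with a Runx2 peak only turned. Among regions over 500 bp from every start, AP-1 shares were 25.7%, 21.2% and 19.2%, and Ctcf shares were 5.56%, 2.17% and 5.44%. Thus AP-1 was higher in distal Runx-free regions than in either group, by 4.55 points (2.41 to 6.56) and 6.56 points (4.89 to 8.14). The distal Ctcf share exceeded that of regions with a Runx1 peak by 3.39 points (2.51 to 4.07) but differed by 0.118 points (-0.872 to 0.987) from that of regions with a Runx2 peak only. Of 11742 ATAC-seq regions with an AP-1 match 50.9% were Runx-free stable regions, beside 48.4% of all regions.

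Ctcf matches were more frequent in the Runx-free stable regions than in regions that changed in Runx1KO cells, and AP-1 matches were less frequent. Ctcf matches were found in 0.137% of closing regions and 1.4% of opening regions, 4.71 points (4.44 to 4.98) and 3.44 points (3.08 to 3.79) below the Runx-free stable regions. Of 1643 ATAC-seq regions with a Ctcf match, 79.4% were Runx-free stable regions, beside the same 48.4%. AP-1 matches were more frequent in closing (25.5%) and opening regions (27.1%) than in the Runx-free ones, with differences of -3.31 points (-4.36 to -2.28) and -4.92 points (-5.95 to -3.9). Among regions over 500 bp from every start these were -0.963 points (-2.1 to 0.156) and -3.04 points (-4.17 to -1.92). Zeb matches (CAGGTG or CAGGTA) were found in 25% of Runx-free regions, 50.8% of opening regions and 12% of closing regions, with differences of -25.8 points (-27 to -24.7) and 12.9 points (12.1 to 13.8). The Zeb share of Runx-free regions was 1.12 points (0.382 to 1.85 in absolute size) below that of their own shuffled copies, 26.1%. Against stable regions with a Runx1 peak (19.5%) it was 5.46 points higher (4.08 to 6.79), with an odds ratio of 1.2 (1.1 to 1.32) in the logistic regression, but over the whole length of the regions the difference turned to -13.1 points.

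GC boxes and Ets elements, both common in constitutive promoters, were less frequent in Runx-free stable regions than in stable regions with a Runx peak, also at promoters. GGGCGG, the GC box that Sp proteins bind, was found in 13.1% against 37% and 39.8%, and CCGGAAG, an Ets element, in 2.81% against 7.47% and 7.31%. Within 500 bp of a start the GC box shares were 40.7%, 55.2% and 56.9%, a difference of -14.4 points (-16.9 to -11.9) from regions with a Runx1 peak. The Ets shares there were 8.56%, 11.3% and 10.4%, a difference of -2.75 points (-4.32 to -1.25). Nfy elements (CCAAT followed by C or G and then A or G) at starts were at 10.2%, 11.7% and 9.94%, with intervals of both differences that include 0 (-1.45 points, -3.07 to 0.101, and 0.282 points, -0.974 to 1.53). The Nrf1 element GCGCATGC was rare, at 1.66%, 2.15% and 2.15%. Across all Runx-free regions Nfy was found in 7.23%, below the 9.13% of their shuffled copies, and Nrf1 in 0.613% against 0.301%. Over all 55649 ATAC-seq regions AP-1 was found in 21.1%, Ctcf in 2.95%, Zeb in 26.3%, the GC box in 16.8%, Ets in 3.29%, Nfy in 7.71% and Nrf1 in 0.695%.

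The Runx element itself is tied to the rule through binding and is described without a test. TGTGGT was found in 12.7% of Runx-free regions, the same as in their shuffled copies (12.6%), and in 21.2% and 15.6% of stable regions with a Runx1 peak and with a Runx2 peak only. This amounts to 3412 Runx-free stable regions with a Runx element in the middle and no called peak of either factor.

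**Figure D2:**
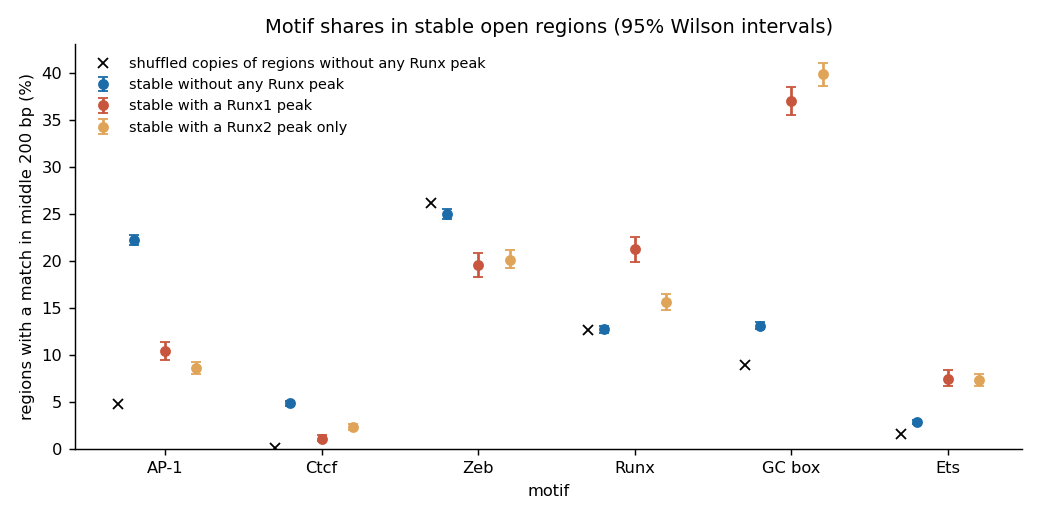
Share of stable regions with a match in the middle 200 bp (%, vertical axis) for 6 motifs, with 95% Wilson intervals as bars, in 3 groups given by colour. Crosses give 1 dinucleotide-shuffled copy of each Runx-free window. AP-1 stands at 22.2% in Runx-free regions and 4.8% in shuffled copies, whereas Runx (12.7% and 12.6%) and Zeb (25% and 26.1%) do not rise above their copies.

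Along the Runx-free stable regions, AP-1 and Ctcf matches were concentrated in the middle. Within 60 bp of the middle AP-1 matches occurred at 1.55 per kb, against 0.184 per kb in DNA 400 to 500 bp away, a ratio of 8.4 (counting interval 7.85 to 8.99). Ctcf matches occurred at 0.32 and 0.00854 per kb, a ratio of 37.5 (27.9 to 50.3). GC boxes (2.82, 2.67 to 2.98) and Ets elements (2.58, 2.25 to 2.97) were also denser in the middle. The ratio was 1.1 for Zeb (1.06 to 1.14). For Runx, which the rule used through binding, it was 0.885 and is given as a description. Of the regions with a Ctcf match in the middle 200 bp 41% had it within 25 bp of the middle, measured from the first base of the match. The share was 39.6% for AP-1, 28.4% for Runx and 30.4% for Zeb.

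**Figure D3:**
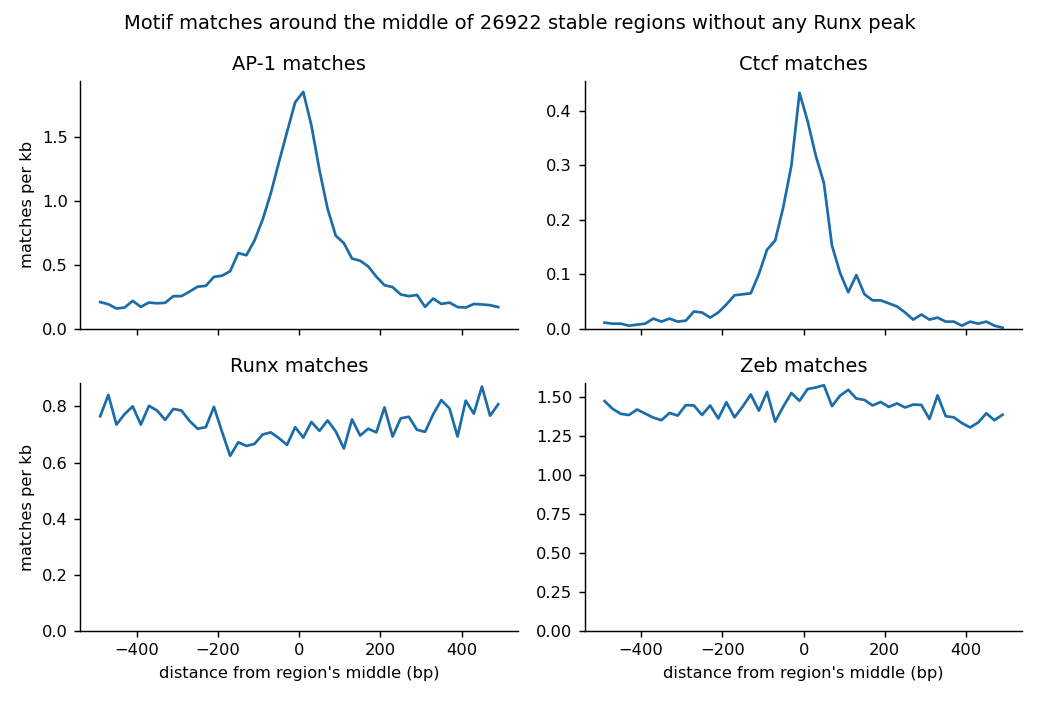
Matches per kb (vertical axes, 20 bp bins) against the distance from the middle of the region in bp (horizontal axes) over all 26922 Runx-free stable regions. AP-1 and Ctcf rise 8.4-fold and 37.5-fold in the middle over DNA 400 to 500 bp away, while Runx and Zeb are nearly flat.

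The Runx-free stable regions were not alike. AP-1 and Ctcf marked largely separate regions, since only 62 held both. AP-1 was found in 4.75% of regions with a Ctcf match and 23.1% of those without, a difference of -18.3 points (-19.5 to -17), and the difference held among regions over 500 bp from every start (4.88% and 27%). Ctcf regions were narrow, with a median of 333 bp against 428 bp for AP-1 regions and 522 bp for all. The Ctcf share was 11.6% in regions of 215 to 362 bp, the lowest quartile of width, and 0.417% in those of 767 to 3585 bp, the highest, and the AP-1 share 29.8% and 9.47%. The widest regions held most promoters, with 44.2% of them within 500 bp of a start against 4.78% of the narrowest ones. By distance, AP-1 was found in 6.1% of regions within 500 bp of a start, 24.3% from there to 10 kb, 26.1% from 10 to 50 kb and 28.1% beyond. The GC box went the other way, from 40.7% to 8.17%, 6.57% and 5.53%, while Zeb was between 22.7% and 25.7% in all 4 classes.

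The share of regions near chromatin that changed in Runx1KO cells differed by under 2 points between Runx-free and other stable regions. A closing region was within 20 kb of 22.8% of them, against 24.7% and 21.1% of stable regions with a Runx1 peak and with a Runx2 peak only, differences of -1.95 points (-3.42 to -0.516) and 1.73 points (0.621 to 2.81). An opening region was within 20 kb of 30.1%, 31.1% and 28.8%, differences of -0.994 points (-2.57 to 0.552) and 1.3 points (0.0819 to 2.51). The differences varied with position. Within 500 bp of a start an opening region was near 28.1% of Runx-free regions, against 27.2% (difference 0.904, -1.36 to 3.12) and 24.2% (3.86, 2.03 to 5.67), and a closing region near 16.9%, against 18.5% and 16.9%. Among regions over 500 bp from every start the Runx-free ones were less often near either kind. A closing region was within 20 kb of 24.1%, against 33.4% and 27.8% (differences -9.28, -11.7 to -6.96, and -3.67, -5.52 to -1.88), and an opening region within 20 kb of 30.5%, against 36.5% and 36.2% (differences -5.98, -8.44 to -3.59, and -5.65, -7.62 to -3.72).

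Around Grhl2, an epithelial transcription factor on chromosome 15, 16 ATAC-seq regions lay within 100 kb of the start. Of these 8 were opening regions, 1 was a stable region with a Runx2 peak only and 7 were Runx-free stable regions. The opening regions included the promoter and all but 2 of the regions upstream, whereas 6 of the 7 Runx-free regions lay inside introns of the gene, 11.5 to 95.7 kb downstream of the start. AP-1 matches lay in the middle of 3 of them, and the 4 matches are shown with 41 bases of the plus strand each, to show where the element recurs. The first and second lie side by side in 1 region and their windows overlap.
+11.5 kb, first match (chr15:37174260-37174300): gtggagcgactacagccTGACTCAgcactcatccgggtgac
+11.5 kb, second match (chr15:37174280-37174320): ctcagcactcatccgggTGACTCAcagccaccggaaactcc
+31.5 kb (chr15:37194234-37194274): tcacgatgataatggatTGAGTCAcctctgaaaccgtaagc
+33.8 kb (chr15:37196628-37196668): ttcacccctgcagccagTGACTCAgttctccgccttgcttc

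Near Pard6b, which encodes a polarity protein of epithelial cells, 14 of 24 regions were Runx-free stable regions, between 96.3 kb upstream and 87 kb downstream of the start, interspersed with 8 opening regions. Its promoter was a stable region with a Runx2 peak only. Zeb1 and Zeb2 had closing regions at their starts and few stable ones nearby. Within 100 kb there were 2 Runx-free stable regions and 4 closing regions for Zeb1, and 1 and 6 for Zeb2. The Runx-free region of Zeb2 lay 83.3 kb downstream in an intron (chr2:44889526-44889773). At Runx1 itself 3 of 7 regions were Runx-free, with those at 2.14 kb upstream and 2.26 kb downstream of the start 1552 and 1479 bp from the nearest Runx peak, and at Runx2 2 of 6.

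To ask whether genes with these open regions at their starts kept their expression, genes were sorted by the ATAC-seq regions within 500 bp of any annotated start. Of 24953 genes with TPM values 20435 matched the gene annotation, and 3537 had Runx-free stable regions and no other ATAC-seq region there. In Runx1KO cells 3003 of these could be tested, of which 187 (6.23%) rose and 98 (3.26%) fell over 2-fold at an adjusted p under 0.05 (limma). Among all 13067 genes tested 7.91% rose and 5.1% fell. A gene that is off in control cells enters the test only by being on in Runx1KO cells. Of the 187 rises 75 were among 127 genes that reached 1 TPM in fewer than 3 control libraries, and among the other 2876 genes 112 (3.89%) rose and 98 (3.41%) fell, beside 4.39% and 5.44% of all 12245 such genes, a split chosen after seeing the data. Genes with a Runx1 peak in their stable promoter rose in 2.67% and fell in 2.05% of 1907, and those with a Runx2 peak only in 2.95% and 2.15% of 3528. At the other end, 169 of 222 genes with only closing regions at their starts (76.1%) fell and 305 of 400 with only opening regions (76.2%) rose. The lower quartile of control TPM in the latter was 0.3. Genes below it could not pass the filter without the Runx1KO libraries, which favours rises in this class. The median log2 fold change of genes with only Runx-free regions was -0.07 (quartiles -0.29 and 0.22), beside -0.06 over all genes, and 73.7% of them were within 0.5 of 0 on the log2 scale, against 70.8%. Their median control level was 29 TPM, against 45.1 and 37.5 TPM for genes with a Runx1 peak or a Runx2 peak only, 10.6 TPM for closing and 1.27 TPM for opening promoters.

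**Figure D4:**
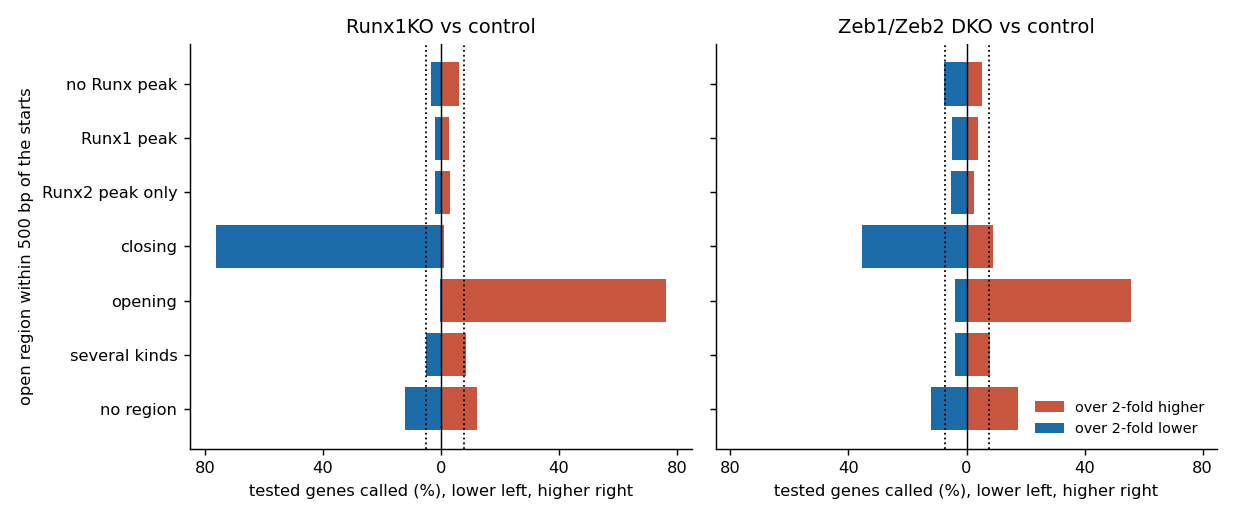
Percent of tested genes called over 2-fold higher (red, right) or lower (blue, left) by kind of open region within 500 bp of the starts (vertical axis), for Runx1KO (left panel) and Zeb1/Zeb2 DKO cells (right panel) against control. Dotted lines give the percent over all genes tested. In Runx1KO cells genes with only Runx-free stable regions (6.23% higher, 3.26% lower) lie inside the lines, and genes with closing or opening promoters far outside. Some genes with opening promoters could not pass the filter without the knockout libraries, which favours rises.

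Genes of the common cell machinery with only Runx-free stable regions at their starts hardly changed over 2-fold, like the rest of their lists. In the whole lists 0 of 84 tested ribosomal protein genes were called in Runx1KO cells, 1 of 81 of oxidative phosphorylation, 1 of 36 proteasome subunits, 1 of 53 initiation factors, 0 of 47 splicing factors, 0 of 34 of replication and cell cycle and 2 of 79 of the transcription machinery (limma). Genes with only Runx-free promoters were 3003 of the 13067 tested over all genes. Among 85 nuclear genes of oxidative phosphorylation 38 had only Runx-free stable regions at their starts, against 7 with a Runx1 peak and 22 with a Runx2 peak only, and 0 of the 38 were called in Runx1KO cells (limma). Among 39 proteasome subunits 21 did, of which 20 were tested and 1 rose. Among 88 ribosomal protein genes 23 did, against 15 and 33, and 0 of 23 were called, with log2 fold changes from -0.43 to 0.33. The same held for 12 of 55 translation initiation factors (0 called), 12 of 48 splicing factors (0 called), 12 of 34 genes of DNA replication and cell cycle (0 called) and 22 of 82 genes of RNA polymerase II, Mediator and general factors (1 rose). None of 11 architectural chromatin factors measured, Ctcf and the cohesin subunits among them, had only Runx-free regions at its starts, and 9 had a Runx peak there (3 Runx1, 6 Runx2 only). The median log2 fold changes of these lists with Runx-free promoters were between -0.18 and -0.03, beside -0.06 over all genes.

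Among 20 housekeeping reference genes, 5 had only Runx-free stable regions at their starts, Gapdh, Hprt, Sdha and Gusb among them. Gapdh, a glycolytic enzyme, stood at 969.2, 989.2 and 952.9 TPM (control) and at 974.5, 992.0 and 977.5 TPM (Runx1KO), and the groups overlapped (log2 fold change 0.02, SE 0.0226, adjusted p = 0.545, limma). Sdha, a subunit of succinate dehydrogenase, was at 156.7, 162.2 and 168.0 TPM and at 159.0, 146.6 and 151.1 TPM, again with overlap. Hprt, a purine salvage enzyme, was at 233.2, 233.8 and 224.5 TPM and at 195.1, 195.2 and 211.0 TPM, lower in each Runx1KO library (log2 fold change -0.20, adjusted p = 0.00249). Gusb, a lysosomal enzyme, went from a mean of 10.4 ± 1.07 to 13.9 ± 0.802 TPM (SD, n = 3). The other 15 had a Runx1 peak (8), a Runx2 peak only (5) or regions of several kinds (2: Eef1a1 and Tubb5). Those with a Runx1 peak included Actb, Tbp, Rplp0, Ppia, Ywhaz, Tfrc and Hsp90ab1, and those with a Runx2 peak only included Polr2a, Pgk1, B2m and Rpl13a. None of the 20 passed the 2-fold limit in Runx1KO cells (limma), and Tfrc, the transferrin receptor, with a Runx1 peak, had a log2 fold change of 0.86.

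Abundant genes of these lists shifted by less than 2-fold, and the log2 fold changes of the 3 most abundant of each are given whether or not they passed the test. Rpl12, with the GC box shown above, was at 2677.1, 2680.7 and 2643.8 TPM (control) and 2488.6, 2546.2 and 2486.3 TPM (Runx1KO), lower in each Runx1KO library by a log2 fold change of -0.09 (SE 0.0203). Rplp1, with the Nfy element, was at 2226.1, 2179.4 and 2088.6 and at 2058.3, 2085.9 and 2045.2 TPM, and each Runx1KO library was below each control library (log2 fold change -0.07, adjusted p = 0.0614, limma). For Rpl35, the other ribosomal gene, it was -0.12. Of oxidative phosphorylation, Atp5b of ATP synthase had 0.15, and the cytochrome c oxidase subunits Cox6a1 and Cox7b had -0.05 (adjusted p = 0.0921, limma) and -0.24. The proteasome subunits Psmb3, Psmb1 and Psmb7 had 0.41, -0.18 and -0.21, and the initiation factor subunits Eif3e, Eif3l and Eif3i had -0.18, -0.16 and -0.17. The spliceosomal proteins Snrpe, Snrpg and Snrpf had -0.33, -0.22 and -0.06, of which the last did not pass (adjusted p = 0.195, limma). Gtf2f1, Polr2e and Med19 of the transcription machinery had -0.25, -0.22 and 0.23, and Top2a, a topoisomerase of dividing cells, and the mitotic cyclin Ccnb1 had 0.14 and -0.23. Ccna2, an S phase cyclin, varied most among control libraries (186.4, 231.8 and 281.3 TPM) and did not pass either, at -0.17 (adjusted p = 0.307, limma). The smallest of these shifts depend on scaling, and the median over all genes was -0.06. With median-ratio scaling Rpl12 was at -0.03, Rplp1 at -0.01 and Cox6a1 at 0.01, while Cox7b was at -0.18.

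The 187 genes with only Runx-free promoters that rose in Runx1KO cells had a median of 2.53 TPM in control cells, a low level that the filter and the call favour, and 14.9 TPM in Runx1KO cells. An opening region lay within 20 kb of a start in 54.5% of them, against 28.1% of the 2718 genes not called. The genes not called had a median of 31.5 TPM in control cells. Of the 187, 75 reached 1 TPM in fewer than 3 control libraries, and the part of expression level and filter in this contrast was not tested. Lypd5, of the Ly6 family, was at 0.5, 0.3 and 0.1 TPM in control and at 60, 58.7 and 56.8 TPM in Runx1KO libraries (log2 fold change 5.53 on log2(TPM + 1), SE 0.11), with an opening region 6499 bp from its start. Fxyd3, a regulator of the sodium pump found in epithelia, was listed at 0 in every control library and at 40.1, 38.6 and 46.5 TPM in Runx1KO ones. Nxf7, of the nuclear RNA export factor family, was likewise listed at 0 and at 23.9, 21.7 and 22.3 TPM. No fold is given against a group at 0, and in all 3 genes the groups were far apart.

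Other large rises were those of Adap1, Ptn, Dll1, Lcn2 and Pcolce2. Lcn2, a secreted lipocalin that marks kidney tubule injury, rose from 15.1, 13.5 and 16.9 to 181.4, 192.3 and 207.4 TPM, with the Runx-free promoter region at chr2:32243290-32243896 and an opening region 4260 bp away. Dll1, a Notch ligand, rose from a mean of 0.667 ± 0.321 to 20.5 ± 0.862 TPM, Ptn, a secreted growth factor, from 0.333 ± 0.306 to 19.4 ± 2.47 TPM, and Adap1, an Arf GTPase-activating protein, from 1.9 ± 0.557 to 48.4 ± 2.74 TPM (SD, n = 3). Ptn had no opening region within 100 kb, the nearest being at 618632 bp. Pcolce2, an enhancer of procollagen processing, rose from 0.767 ± 0.379 to 17.4 ± 1.25 TPM, with an opening region at 8740 bp. Lypd5, Fxyd3, Nxf7, Ptn, Dll1 and Pcolce2 entered the test through their Runx1KO libraries, so their values are given without a p.

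The 98 genes with only Runx-free promoters that fell had a median of 18.4 TPM that became 5.93 TPM. A closing region lay within 20 kb of a start in 39.8% of them, against 17.2% of the genes not called. Col6a1, a chain of collagen VI, was at 324.2, 332.7 and 334.5 TPM in control and at 32.4, 31.8 and 31.8 TPM in Runx1KO libraries (log2 fold change -3.33, SE 0.0259, adjusted p = 1.31e-09, limma). The region at its start (chr10:76188393-76189040) was 2176 bp from the nearest Runx peak, and the nearest closing region was 25440 bp away. Slc14a1, a urea transporter, fell from 86.8, 82.8 and 88.4 to 5.7, 5.8 and 6.2 TPM, with a closing region 7132 bp and an opening region 2770 bp from its start. Cyp1b1, a cytochrome P450, fell from 9.1, 8.5 and 9.2 to 0.2, 0.1 and 0.1 TPM, with one 704 bp from its start. In all 3 the groups were far apart in each library.

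Of the remaining largest falls, Nedd9, an adhesion scaffold, fell from 57.7 ± 2.25 to 7.77 ± 0.351 TPM, Angptl2, a secreted glycoprotein, from 75.6 ± 3.07 to 11.1 ± 0.681 TPM, and Rasl11a, a small GTPase, from 57.6 ± 3.03 to 7.53 ± 0.586 TPM (SD, n = 3). Closing regions lay 7676, 4920 and 25800 bp from their starts, and for Rasl11a an opening region was nearer, at 19879 bp. Cxcl10, an interferon-induced chemokine, fell from 138 ± 16.4 to 22.6 ± 0.608 TPM, and Mrgprf, a receptor of the Mas-related family, from 20 ± 1.55 to 2.87 ± 0.586 TPM. Their nearest closing regions were 85768 and 105116 bp away, and opening regions were nearer, at 14248 and 12972 bp.

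Some epithelial and mesenchymal genes had only Runx-free stable promoters, as 3537 of all 24953 genes with TPM values did. Of 45 epithelial genes 4 did, against 17 with only opening regions and 17 with no ATAC-seq region, and 3 of the 4 rose in Runx1KO cells, beside 25 of the 31 tested in the whole list. Elf3, an epithelial Ets factor, was at 30.8, 30 and 35.3 TPM (control) and 120.8, 118.9 and 123.4 TPM (Runx1KO), with an opening region 9596 bp from its start. Cgn, cingulin of tight junctions, rose from 5.9, 6.0 and 6.7 to 54.9, 52.2 and 52.7 TPM. Its promoter region (chr3:94589949-94590830) held Nfy, GC box and Grhl (AACCGGTT or AACAGGTT) elements in the middle and had an opening region 2459 bp away. Grhl elements were found in 0.646% of all Runx-free regions and in 0.732% of their shuffled copies. Grhl1, of the Grainyhead family, was at 8.9 TPM in all control libraries and at 10.2, 10.0 and 10.5 TPM. Of 35 mesenchymal genes 5 had only Runx-free promoters, against 8 with only closing regions, and 2 of the 5 fell, beside 14 of 27 tested in the whole list. These were Col6a1 and Col5a1, a chain of collagen V, which fell from 97.4, 92.7 and 98.7 to 17.7, 17.1 and 17.6 TPM with a closing region 1470 bp from its start. Cald1, an actin-binding protein, went from 200 ± 7.83 to 142 ± 5.25 TPM, a log2 fold change of -0.50 (limma).

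**Figure D5:**
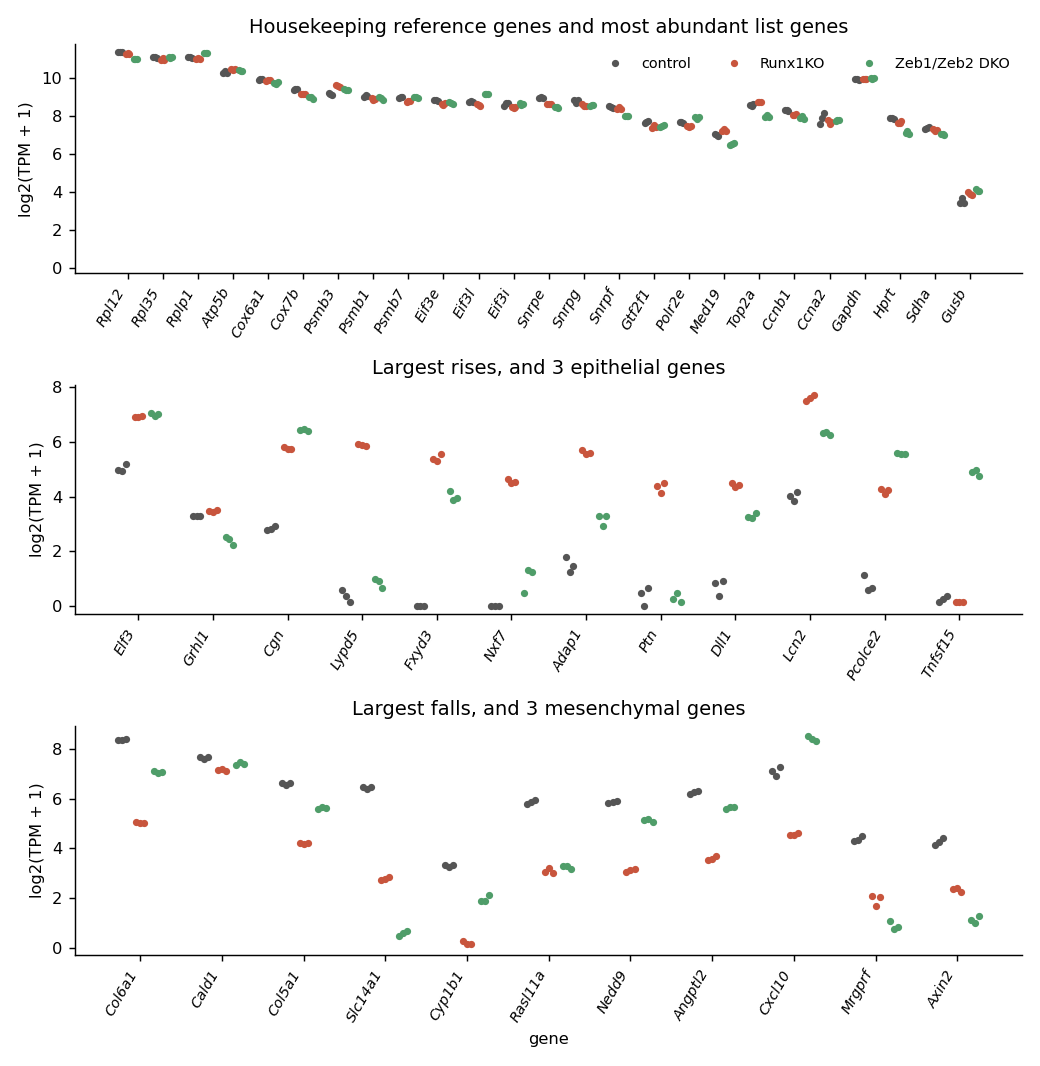
Log2(TPM + 1) of each library (points, 3 per group) for genes with only Runx-free stable regions at their starts, in control (grey), Runx1KO (red) and Zeb1/Zeb2 DKO cells (green). Genes of the common machinery (top) keep their level within about 1 unit across groups, while the genes of the largest rises (middle) and falls (bottom), chosen for their change, do not.

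In Zeb1/Zeb2 DKO cells, for which no ATAC-seq was analysed, the same promoters were compared with the same control libraries. Of 2969 tested genes with only Runx-free promoters 155 (5.22%) rose and 225 (7.58%) fell, beside 7.48% and 7.27% of all 12974 genes tested. The median log2 fold change was -0.20, and that of all genes was -0.18 and moved to 0.00 with median-ratio scaling. With that scaling 206 of these genes rose and 144 fell, so the balance of rises and falls depends on the scaling. Genes with only opening regions at their starts rose in 55.7% of 345, and those with only closing regions fell in 35.4% of 226. The lower quartile of control TPM in the former was 0.467, and genes below it could not pass the filter without the DKO libraries.

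The largest falls among genes with Runx-free promoters were those of Slc14a1, Mrgprf and Axin2. Slc14a1 was at 0.4, 0.5 and 0.6 TPM in DKO cells, Mrgprf at 1.1, 0.7 and 0.8 TPM and Axin2, a Wnt target and inhibitor, at 1.2, 1.0 and 1.4 TPM, against 16.5, 17.9 and 20.6 TPM of Axin2 in control. The largest rises were those of Pcolce2 (47.9, 45.7 and 46.8 TPM), Tnfsf15 and Fxyd3 (17.7, 13.9 and 14.3 TPM). Tnfsf15, a cytokine of the TNF family, was at 29.3, 30.8 and 25.8 TPM in DKO cells, but at 0.1, 0.2 and 0.3 TPM in control and 0.1 TPM in each Runx1KO library. Cgn and Elf3 were at 86.6 ± 2 and 128 ± 6.26 TPM (SD, n = 3), above control in each library. Grhl1 went the other way, at 4.8, 4.5 and 3.7 TPM against 8.9 TPM in each control library. Lypd5 and Ptn, among the largest rises of Runx1KO cells, were at no more than 1.0 and 0.4 TPM in DKO cells, and Cxcl10 was at 366.0, 336.7 and 316.5 TPM, above its control level of 121.2 to 154.0 TPM. Calls in the lists of common machinery are given beside 7.48% higher and 7.27% lower over all genes tested. Among genes with Runx-free promoters 0 of 38 oxidative phosphorylation, 0 of 23 ribosomal protein, 0 of 12 splicing and 0 of 12 replication genes were called (limma). Of 21 proteasome genes 1 was higher, of 12 initiation factors 1 was lower, and of 22 genes of the transcription machinery 2 were lower. In the whole lists 0 of 84 ribosomal protein and 0 of 47 splicing genes were called. Of 81 oxidative phosphorylation genes 1 rose and 1 fell, as in 53 initiation factors and in 34 replication genes. Of 37 proteasome genes 1 rose, and of 78 genes of the transcription machinery 3 fell.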

How the data were processed

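RNA-seq, ATAC-seq and ChIP-seq files of control, Runx1KO and Zeb1/Zeb2 DKO mK4 cells were used. Per the study's methods, reads were trimmed with Trim Galore, aligned to mm9 with STAR, cleared of duplicates and, for RNA-seq, counted on RefSeq genes with featureCounts. The authors deposited expression as TPM (a table of 9 libraries with 1 decimal, used here, and one of 6 libraries, used as an alternative), which keeps no read number. ChIP-seq peaks were called with MACS2 on pooled replicates, less those that the Runx1 antibody also gave in Runx1KO cells. In these lists the fold (ratio) is the enrichment over background deposited by the authors, and the −log10 q values, also deposited by the authors, were used only for a stricter alternative. ATAC-seq lists hold peaks found in at least 2 of 3 replicates. Their last columns hold the authors' own comparison (a log2 fold change and an unlabelled −log10 value), and were not used.

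The Runx-free regions and the gene lists were chosen with earlier results of these data known. Overlap was 1 bp or more. Starts, exons and sequence came from GENCODE vM1 and mm9. Motifs were counted as exact matches on both strands in the middle 200 bp, beside 1 dinucleotide-shuffled copy per window, and are coarser than weight matrices. Shares were compared with Newcombe 95% intervals and logistic regression (statsmodels 0.14.6). They cover counting error only. For each comparison, limma 3.58.1 was fitted to log2(TPM + 1) of genes that reached 1 TPM in at least 3 of its 6 libraries in R 4.3.3 (trend, Benjamini-Hochberg), and genes were called at over 2-fold and adjusted p under 0.05. A fold change on this scale understates that of lowly expressed genes. The fit and the motif counts were tested on simulated data. Cultures were in triplicate, and replicate numbers were not taken as pairs. The regions and genes named are the housekeeping genes (some not reported here), the 3 most abundant genes of each other list with Runx-free promoters, the 8 largest rises and 8 largest falls in Runx1KO and 3 and 3 in DKO cells, and regions within 100 kb of 6 starts. Printed promoter sequences were cut back to 120 bp or less, outside annotated exons, or to 30 bp around the match. The AP-1 matches near Grhl2 were added after seeing the data.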

Additional observations from a re-analysis of the deposited data

How the results depend on the processing

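The direction of the start, AP-1, GC box and Ets differences between Runx-free and other stable regions held under every alternative tried for them. With a start inside the region, within 1000 bp, or of protein-coding transcripts only, the share of Runx-free regions at a start was 15.7%, 20.8% and 15.4%. For regions near closing or opening chromatin the differences were small and changed with the window. At 5 kb they were -0.351 points (closing, against a Runx1 peak) and 0.203 points (opening, against a Runx2 peak only), with intervals that include 0. At 50 kb the opening difference was -2.37 points against a Runx1 peak, past its interval, and -0.13 points against a Runx2 peak only, where the sign turned. In the logistic model the log odds were 0.024 for AP-1 and 0.14 for Ctcf against a Runx1 peak, with intervals that include 0, and -0.473 for Ctcf against a Runx2 peak only, a reversal. Among distal regions the Ctcf difference from a Runx2 peak only was 0.118 points and the Ets difference from a Runx1 peak -0.615 points, neither past its interval. Zeb differences turned to -13.1 and -12.8 points over whole regions, and relative to shuffled copies they were 0.261 points (not past its interval) and -1.3 points. Nfy against a Runx2 peak only turned to 0.282 points at starts and 0.315 points elsewhere. Tead turned against both groups, to -3.91 and -2.75 points over whole regions, -1.28 and -0.532 points among distal regions, and log odds of -0.144 and -0.0565. Median widths differed by -270 and -245 bp at starts and -306 and -200 bp elsewhere (-475 and -450 bp in all), GC content by -2.7 and -3.54 points and by -0.569 and -0.614 points (-6.04 and -7.02), and CpG ratio by -0.117 and -0.12 and by -0.0429 and -0.0429 (-0.376 and -0.408). The cause was not tested, beyond the fewer regions of each subset.

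At a limit of 1.3-fold in place of 2-fold, 553 genes with only Runx-free promoters rose and 549 fell in Runx1KO cells, and 471 and 1074 in DKO cells. Among genes with 1 TPM in all 3 control libraries, chosen after seeing the data, 112 rose in Runx1KO and 111 in DKO cells, since genes off in control cells are then left out. With median-ratio scaling the falls in DKO cells went from 225 to 144. Leaving out 1 library gave 126 to 189 rises and 77 to 99 falls in Runx1KO cells, and 120 to 156 and 207 to 240 in DKO cells. The lowest counts of rises came without 1 of the Runx1KO or DKO libraries, when a gene near 0 in control cannot reach 1 TPM in 3 libraries. Replicate numbers did not pair the samples (correlations of deviations between -0.0495 and 0.0399). With the replicate number as a block, 9013 of 13067 genes passed adjusted p under 0.05 in Runx1KO cells, against 9216 without, and 10016 against 10305 of 12974 in DKO cells. The calls of genes with only Runx-free promoters were 187, 98, 155 and 225 with the block as without it. Of the refits of named genes 1889 kept their call, and 4 became calls, B2m, Grhl1 and Col5a1 in DKO cells among them. The sign of a small shift could turn among the former. With median-ratio scaling Cox6a1 went from -0.05 to 0.01 in Runx1KO cells and from -0.18 to 0.02 in DKO cells. A count model was not run, since TPM holds no counts, and depth cannot be read from these files.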
